A study of Mus musculus with 16 samples.

Results

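Myelin and oligodendrocyte lineage genes were followed across RNA-seq libraries of mouse cerebral cortex. The 31 genes were taken from the count table by matching its mouse Ensembl gene identifiers to a list of gene symbols, and all 31 were found once among the 55573 identifiers of the table. By the stage at which they are known to be used, 4 are precursor genes (Pdgfra, Cspg4, C1ql1 and Ptprz1), 5 are genes of committed, newly forming oligodendrocytes (Gpr17, Enpp6, Bcas1, Tspan2 and Nkx2-2), 4 are transcription factors of the whole lineage (Olig1, Olig2, Sox8 and Sox10) and 18 are genes of myelinating oligodendrocytes. The 18 are Myrf, Mbp, Mog, Mag, Mobp, Cnp, Cldn11, Opalin, Ermn, Ugt8a, Mal, Gjc3, Gjb1, Aspa, Fa2h, Trf, Hapln2 and Plekhh1.

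The study had 2 mutant lines of Aifm1, the gene of the mitochondrial apoptosis-inducing factor, with 4 libraries in each of 4 groups. Aifm1-KI mice carry a knock-in that deletes the arginine codon written R200 del and were compared with Aifm1-WT littermates, and Hq-mut mice of the harlequin stock (B6CBACa Aw-J/A-Aifm1Hq/J) were compared with Hq-WT littermates. All animals were untreated, were sampled at about postnatal day 180 and carry the strain label C57BL/6, which for the Hq groups stands beside a stock name of mixed origin. The labels do not say that each library came from a separate animal, so p-values measure the spread between libraries. Both mutations are in the germ line, so no promoter or cell type restricts them.

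Oligodendrocytes arise from dividing precursor cells that carry the growth factor receptor PDGFRA and the proteoglycan NG2, the product of Cspg4. Precursors that commit to differentiation pass through a short premyelinating state marked by the receptor GPR17, then wrap axons and make the proteins and lipids of myelin, under the control of SOX10, OLIG2 and MYRF. The adult cortex keeps precursors in all layers, while myelinated axons are denser in its deep layers and in the adjoining white matter. In bulk cortex, fewer cells of a type and less RNA per cell cannot be told apart.

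The myelinating genes were high and low in the same libraries, as the values given further on show, and their promoters are shown for that reason. The RefSeq promoter table (GRCm38.p6) held 22 of the 31 genes, with 28 start sites. The 250 bases before each start were searched on both strands for ACAAAG and ACAATG, forms of the core that SOX proteins bind, and for CTGGCAC and CTGGTAC, forms of the MYRF motif; none of these words overlapped another in the windows shown. Of the 5 promoters printed, which were chosen after the search, each holds at least 1 of the words in capitals (a capital run on the opposite strand reads as the reverse complement, CTTTGT for ACAAAG and GTACCAG for CTGGTAC). Each is written 5′ to 3′ along the gene's own strand and ends where the annotated gene begins. For Mobp, Mag and Cnp only 215, 240 and 215 bases are printed, since the part of the window inside the annotated gene is left out.
Mobp, chr9:120149492-120149706, plus strand: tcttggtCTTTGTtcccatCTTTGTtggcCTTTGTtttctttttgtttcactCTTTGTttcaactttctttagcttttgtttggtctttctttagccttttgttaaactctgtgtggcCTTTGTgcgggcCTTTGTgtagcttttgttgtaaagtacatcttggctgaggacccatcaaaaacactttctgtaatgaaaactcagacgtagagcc
Mag, chr7:30914874-30915113, minus strand: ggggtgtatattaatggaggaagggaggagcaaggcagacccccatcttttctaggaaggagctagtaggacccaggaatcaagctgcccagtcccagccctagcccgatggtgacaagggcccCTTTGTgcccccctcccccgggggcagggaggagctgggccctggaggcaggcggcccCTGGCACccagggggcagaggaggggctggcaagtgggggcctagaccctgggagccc
Cnp, chr11:100574689-100574903, plus strand: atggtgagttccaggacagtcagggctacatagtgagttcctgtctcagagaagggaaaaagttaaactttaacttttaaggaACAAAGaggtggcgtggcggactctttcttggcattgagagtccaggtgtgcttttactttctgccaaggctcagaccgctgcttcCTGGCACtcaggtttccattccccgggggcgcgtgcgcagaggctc
Opalin, chr19:41077114-41077363, minus strand: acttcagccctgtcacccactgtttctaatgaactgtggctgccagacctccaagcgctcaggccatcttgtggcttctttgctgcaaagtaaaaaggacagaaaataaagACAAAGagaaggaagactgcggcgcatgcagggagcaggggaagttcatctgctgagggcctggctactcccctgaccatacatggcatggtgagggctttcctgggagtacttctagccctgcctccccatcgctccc
Mog, chr17:37023399-37023648, minus strand: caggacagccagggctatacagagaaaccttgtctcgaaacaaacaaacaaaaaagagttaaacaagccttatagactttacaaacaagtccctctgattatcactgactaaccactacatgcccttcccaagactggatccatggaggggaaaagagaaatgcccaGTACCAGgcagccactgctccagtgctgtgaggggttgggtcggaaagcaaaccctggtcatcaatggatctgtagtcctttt
ACAAAG was found in 8 of the 28 windows, against 16.5% of the 32851 windows of all genes, and the Mobp window alone held it 6 times. ACAATG was in 5 of the 28, against 10.7%. CTGGCAC was in 4 of the 28, against 4.19%, and CTGGTAC in 1, against 1.83%. Windows of the same gene can overlap, as those of Mag did, so a site can count more than once. Counted by gene, ACAAAG was in 6 of the 22 genes, ACAATG in 5, CTGGCAC in 3 and CTGGTAC in 1, while the shares over all genes are by window. These matches describe the letters of the windows only.

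Libraries held between 10671580 (Hq-WT 3) and 32551594 (Aifm1-KI 2) counts in genes. Aifm1 itself lay between 21.5 and 25.8 CPM (a gene's count relative to the adjusted total of its library) in the 12 libraries outside Hq-mut and between 2.22 and 4.01 CPM in Hq-mut, so the Hq-mut labels fit its level. The Aifm1-KI allele removes 1 codon, and a gene count checks nothing there. Some libraries stood apart in markers of other tissues. The mean of 10 striatal marker genes, in log2 CPM, was 5.19 in Aifm1-KI 2, 5.05 in Aifm1-KI 4 and 5.69 in Hq-mut 3, against 3.29 to 4.18 in the other 13 libraries. The summed level of 8 choroid plexus markers was 2824 CPM in Aifm1-KI 2 and 5492 CPM in Hq-WT 2, against 5.86 to 380 CPM elsewhere. The summed level of 11 liver-type genes was 280 CPM in Aifm1-WT 1 and 323 CPM in Aifm1-WT 2, against 1.06 to 31.9 CPM elsewhere.

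Per kilobase of exon, averaged over the 16 libraries, Mbp was the most abundant of the 31 genes at 181 CPM per kilobase. Its product, myelin basic protein, holds the cytoplasmic faces of the myelin membrane together. Next came Mobp (82.5), another basic protein of compact myelin, Mal (65.7), a proteolipid of lipid rafts, Cnp (51.9), whose product keeps cytoplasmic channels open in myelin, and Cldn11 (44.9), the tight junction protein of central myelin. The lowest were Nkx2-2 (1.2), a transcription factor of early oligodendrocytes, Enpp6 (1.26), a choline phosphodiesterase of newly forming oligodendrocytes, and Cspg4 (1.71). The precursor gene with the highest level per kilobase was Ptprz1 (19.6), a receptor phosphatase that astrocytes also express.

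Within a group, the members differed in how much they varied between libraries. In Aifm1-WT the highest library stood above the lowest by a median of 1.40-fold for the 18 myelinating genes, 1.32-fold for the committed genes, 1.27-fold for the transcription factors and 1.16-fold for the precursor genes. In Hq-WT the same medians were 3.15-fold, 2.6-fold, 1.67-fold and 1.5-fold. They were 2.21-fold, 1.52-fold, 1.24-fold and 1.94-fold in Aifm1-KI, and 2.35-fold, 2.02-fold, 1.69-fold and 1.5-fold in Hq-mut. So the myelinating genes had the widest range of the stages in all 4 groups, and the precursor genes had the narrowest in 3 of them, the exception being Aifm1-KI.

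In 3 of the groups 1 library held the lowest value of nearly all myelinating genes. In Aifm1-KI all 18 were lowest in library 2, while 8 were highest in library 1 and 10 in library 3. In Hq-WT all 18 were highest in library 3, which was the library with the fewest counts, and 17 of 18 were lowest in library 2, the exception being Trf, lowest in library 1. In Hq-mut all 18 were lowest in library 1, while 8 were highest in library 2 and 10 in library 3. In Aifm1-WT 10 were lowest in library 2 and 8 in library 3, and 9 were highest in library 1, 8 in library 4 and 1 in library 2.

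**Figure D1:**
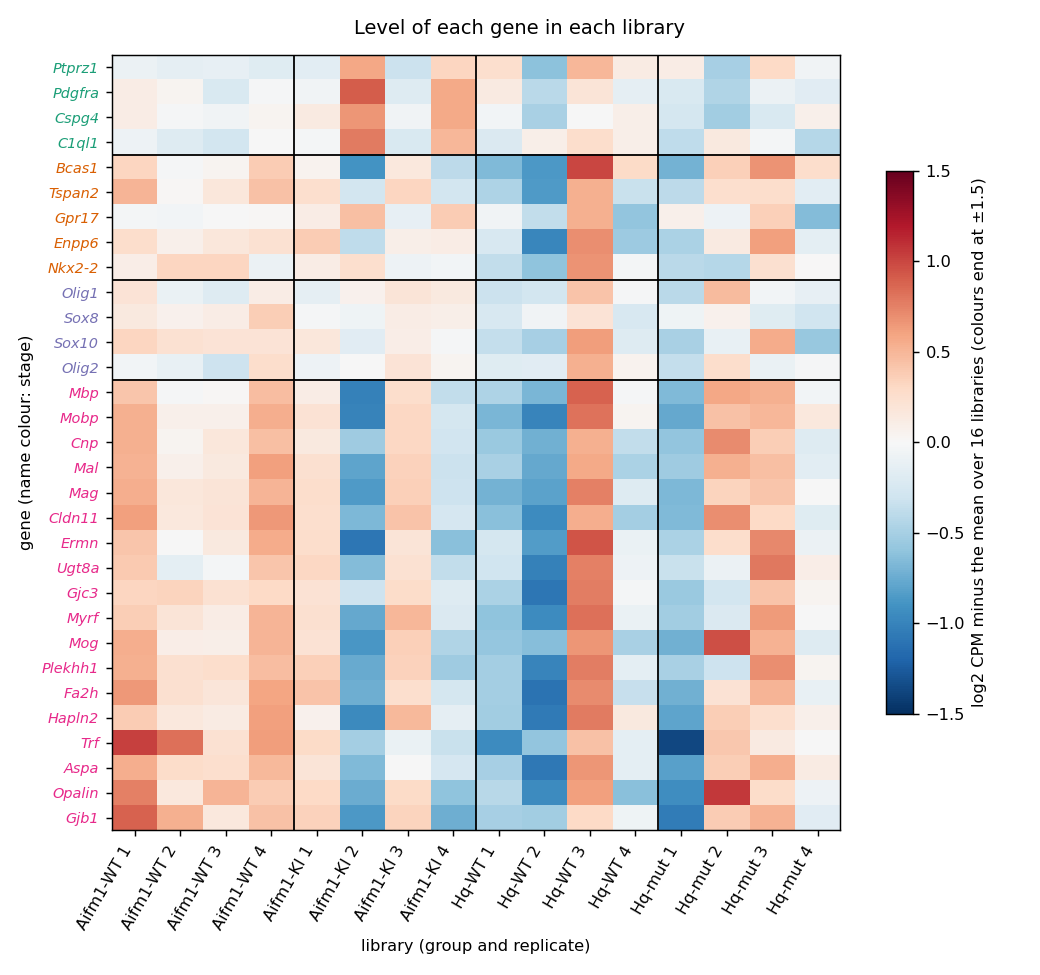
Level of each of the 31 genes (vertical axis, coloured by stage) in each of the 16 libraries (horizontal axis), as log2 CPM minus the gene's mean over the libraries, with colours ending at 1.5 in either direction. The myelinating genes are low together in Aifm1-KI 2, Hq-WT 1 and 2 and Hq-mut 1 and high together in Hq-WT 3, while the precursor genes are high in Aifm1-KI 2 and 4.

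The first comparison asked how the genes differed between Aifm1-KI and Aifm1-WT cortex. All 18 myelinating genes were lower on average in Aifm1-KI, with a median log2 fold change of -0.42 (from -0.84 to -0.24), and all 4 precursor genes were higher, with a median of 0.39 (from 0.29 to 0.48). The committed genes (1 higher, 4 lower, median -0.11) and the transcription factors (2 higher, 2 lower, median -0.03) lay between. Over all 18383 genes tested the median was 0.01, with 51.6% higher and 48.4% lower. None of the 31 members passed an adjusted p of 0.05 (edgeR quasi-likelihood test, Benjamini-Hochberg), where 0% of all genes passed. Adjusted p-values given from here on are edgeR's unless DESeq2 is named. At an unadjusted p under 0.05 there were 8 members of 31, against 11.4% of all genes. DESeq2 called 1 member, Trf, against 0.446% of all genes (82).

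Trf, at chr9:103204001-103230444 (GRCm38), encodes transferrin, an iron carrier that oligodendrocytes and liver make. It measured 26.5, 23.2, 15.3 and 20.2 CPM in Aifm1-WT 1 to 4 and 15.9, 9.17, 12.2 and 10.3 CPM in Aifm1-KI 1 to 4. The groups overlapped at Aifm1-WT 3 and Aifm1-KI 1, and the 2 highest values were those of the Aifm1-WT libraries with liver-type transcripts. The log2 fold change was -0.84 (SE 0.20, adjusted p = 0.368, DESeq2 adjusted p = 0.0318), -0.58 without Aifm1-WT 1 and 2 and -0.57 without Aifm1-KI 2 and 4. The part of the liver-type transcripts in it was not tested further. Of the exon length of Trf, 63.5% overlaps a predicted gene on the same strand, Gm20425, so its count is uncertain.

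Aspa (chr11:73304992-73329596), whose enzyme splits N-acetylaspartate and so supplies acetate for myelin lipids, measured 17.3, 14.4, 14.1 and 16.6 CPM in Aifm1-WT and 13.6, 7.51, 11.8 and 9.99 CPM in Aifm1-KI. Every Aifm1-KI library lay below every Aifm1-WT library, with Aifm1-KI 2 lowest. The log2 fold change was -0.54 (SE 0.17, adjusted p = 0.368), and -0.28 without Aifm1-KI 2 and 4. Sox10 (chr15:79154908-79165240), the transcription factor that all stages of the lineage need, measured 36.0, 33.8, 33.1 and 33.2 CPM in Aifm1-WT and 32.4, 25.6, 30.8 and 28.4 CPM in Aifm1-KI. These groups did not overlap either, by a margin below 1 CPM. The log2 fold change was -0.21 (SE 0.08, adjusted p = 0.405), and -0.09 without Aifm1-KI 2 and 4. Aspa and Sox10 were the 2 of 31 members with Aifm1-KI wholly below Aifm1-WT, where 2.83% of all genes had that order, and no member had Aifm1-KI wholly above, an order found in 2.03%.

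Among the structural genes of myelin, which are named here by their abundance, Mbp measured 1932, 1428, 1455 and 1987 CPM in Aifm1-WT and 1555, 713, 1728 and 1121 CPM in Aifm1-KI. Libraries 2 and 4 of Aifm1-KI were below all Aifm1-WT libraries, and libraries 1 and 3 were within their range. The same order was present in all 18 myelinating genes: each was below all 4 Aifm1-WT libraries in Aifm1-KI 2 and in Aifm1-KI 4, but only 3 were in Aifm1-KI 1 and 2 in Aifm1-KI 3. Relative to the Aifm1-WT mean, the median log2 difference of the 18 was -1.16 in Aifm1-KI 2, -0.65 in Aifm1-KI 4, -0.10 in Aifm1-KI 1 and 0.00 in Aifm1-KI 3. The fitted log2 fold changes of the other genes of the compact sheath and its adhesion were alike in size: Mobp -0.41 (SE 0.25), Mal -0.41 (SE 0.23), Cnp -0.35 (SE 0.18), Cldn11 -0.42 (SE 0.22), Mog, the surface glycoprotein of central myelin, -0.44 (SE 0.25), and Mag, the adhesion protein of the axon-facing membrane, -0.41 (SE 0.23).

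The lipid enzymes had log2 fold changes of -0.24 (SE 0.22) for Ugt8a, which makes galactosylceramide, and -0.44 (SE 0.23) for Fa2h, which hydroxylates its fatty acids. The connexin genes Gjb1 and Gjc3 had -0.67 (SE 0.29) and -0.28 (SE 0.12). Myrf, the transcription factor that switches myelin genes on, had -0.29 (SE 0.23). The remaining values were -0.59 (SE 0.25) for Opalin, a membrane glycoprotein of oligodendrocytes, -0.50 (SE 0.27) for Ermn, a cytoskeletal protein of the late lineage, -0.39 (SE 0.25) for Hapln2, a matrix link protein of the node of Ranvier, and -0.44 (SE 0.24) for Plekhh1.

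The precursor genes had the opposite sign in the same libraries. Cspg4 measured 21.6, 19.7, 19.2 and 20.5 CPM in Aifm1-WT and 21.9, 31.5, 19.2 and 29.5 CPM in Aifm1-KI. C1ql1 (chr11:102939264-102946688), a secreted C1q-like protein that cortical precursors express, measured 6.08, 5.61, 5.30 and 6.36 CPM in Aifm1-WT and 6.28, 11, 5.45 and 9.07 CPM in Aifm1-KI. For both genes Aifm1-KI 2 and 4 stood above every Aifm1-WT library, and Aifm1-KI 1 and 3 lay near or within their range. The log2 fold changes were 0.36 (SE 0.14, adjusted p = 0.413) for Cspg4, 0.48 (SE 0.20, adjusted p = 0.426) for C1ql1, 0.42 (SE 0.21) for Pdgfra and 0.29 (SE 0.17) for Ptprz1. All 4 precursor genes exceeded all 4 Aifm1-WT libraries in Aifm1-KI 2 and in Aifm1-KI 4, with median log2 differences from the Aifm1-WT mean of 0.81 and 0.57, against 0.04 in Aifm1-KI 1 and -0.13 in Aifm1-KI 3.

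Among the committed genes, Gpr17 had the sign of the precursors. It measured 56.4, 55.8, 57.4 and 58.1 CPM in Aifm1-WT and 62.2, 78.8, 52.8 and 74.8 CPM in Aifm1-KI, with 3 of the 4 Aifm1-KI libraries above all Aifm1-WT libraries and Aifm1-KI 3 below them. Its log2 fold change was 0.26 (SE 0.11, adjusted p = 0.428). Bcas1, a marker of oligodendrocytes that are starting to myelinate, had -0.39 (SE 0.21), and Tspan2, a tetraspanin of early myelination, had -0.26 (SE 0.16). Enpp6 (-0.11, SE 0.15), Nkx2-2 (-0.08, SE 0.15), Olig1 (0.07, SE 0.10) and Olig2 (0.09, SE 0.11) differed by less than their standard errors. Sox8, a relative of Sox10, had -0.14 (SE 0.07).

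The stage medians of this comparison rested on Aifm1-KI 2 and 4. Without those libraries they were -0.05 for the myelinating genes (16 lower, 2 higher), -0.03 for the precursor genes, 0.00 for the committed genes and -0.03 for the transcription factors. The same 2 libraries had the high striatal markers given above, and excitatory cortical neuron markers at a mean of 5.50 and 6.48 log2 CPM, against 6.94 to 7.11 in the other 6 libraries of the Aifm1 line. When the striatal marker mean entered the fit as a covariate, the medians were 0.17 for the myelinating genes and -0.26 for the precursor genes, both of opposite sign. The striatal marker level and the allele cannot be told apart in those 2 libraries.

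**Figure D2:**
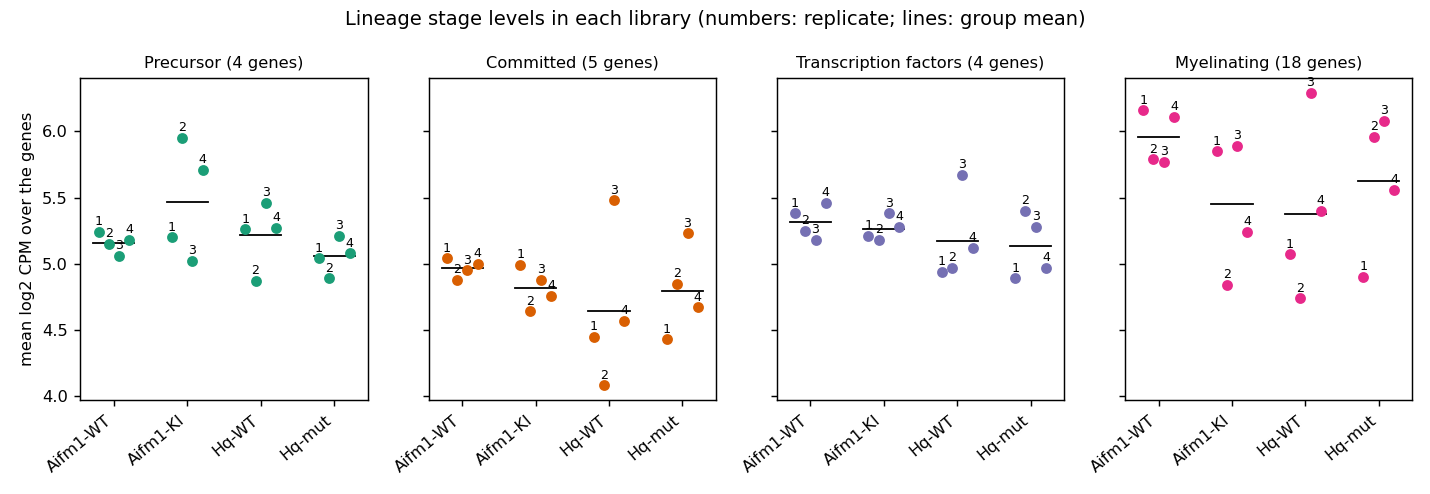
Mean log2 CPM over the genes of each stage (vertical axis) in each library, by group (horizontal axis), with replicate numbers beside the points and lines at the group means. In Aifm1-KI, libraries 2 and 4 are low for the myelinating genes (4.84 and 5.24) and high for the precursor genes (5.95 and 5.71), and libraries 1 and 3 lie close to Aifm1-WT.

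The second comparison set Hq-mut against Hq-WT, with same-numbered libraries taken as pairs. All 18 myelinating genes had a higher fitted average in Hq-mut, with a median log2 fold change of 0.23 (from 0.08 to 0.40), and all 4 precursor genes a lower one, with a median of -0.18 (from -0.24 to -0.13). The committed genes (4 higher, 1 lower) had a median of 0.17 and the transcription factors (1 higher, 3 lower) one of -0.06. Over all 17969 genes tested the median was 0.01, with 51.6% higher and 48.4% lower. None of the 31 members was called by edgeR, against 0.0167% of all genes, and DESeq2 called none, against 0.184% (33 genes). At an unadjusted p under 0.05 there was 1 member, Pdgfra, against 7.97% of all genes, and the groups overlapped for all 31, where 0.857% of all genes had Hq-mut wholly above Hq-WT and 0.723% wholly below.

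Pdgfra (chr5:75152292-75198215), the receptor that drives precursor division, measured 60.4, 41.5, 62.6 and 49.9 CPM in Hq-WT 1 to 4 and 46.9, 40, 51.6 and 48.8 CPM in Hq-mut 1 to 4. Hq-mut was the lower member of each of the 4 pairs, by 0.36, 0.05, 0.28 and 0.03 on the log2 scale, and the groups overlapped. The fitted log2 fold change was -0.21 (SE 0.08, adjusted p = 0.616). Cspg4 was also lower in 4 of 4 pairs, with a log2 fold change of -0.15 (SE 0.09). These were the 2 members of 31 that were lower in every pair, where 6.9% of all genes were, and no member was higher in every pair, where 11.9% of all genes were.

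C1ql1 measured 5.49, 6.78, 7.67 and 6.80 CPM in Hq-WT and 4.92, 7.11, 6.30 and 4.77 CPM in Hq-mut, lower in 3 of 4 pairs, with a log2 fold change of -0.24 (SE 0.14, adjusted p = 0.702). Ptprz1 measured 325, 177, 385 and 297 CPM in Hq-WT and 294, 192, 335 and 262 CPM in Hq-mut, also lower in 3 pairs, with -0.13 (SE 0.08, adjusted p = 0.710). For both the exception was pair 2, and the groups overlapped.

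Of the myelinating genes, Ugt8a measured 36.1, 22.0, 75.2 and 42.2 CPM in Hq-WT and 35.3, 41.9, 77.2 and 47.8 CPM in Hq-mut. Its log2 fold change was 0.24 (SE 0.15, adjusted p = 0.710). The Hq-mut library was higher in 3 of the 4 pairs, by 0.92 on the log2 scale in pair 2 and by 0.04 and 0.18 in pairs 3 and 4. Mal measured 124, 102, 257 and 125 CPM in Hq-WT and 120, 251, 237 and 155 CPM in Hq-mut, and Cldn11 measured 51.2, 41.0, 115 and 55.2 CPM in Hq-WT and 49.9, 128, 96.6 and 69.4 CPM in Hq-mut. For both, Hq-mut was higher in pairs 2 and 4 and lower in pairs 1 and 3. The log2 fold changes were 0.33 (SE 0.21, adjusted p = 0.717) for Mal and 0.39 (SE 0.27, adjusted p = 0.740) for Cldn11.

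Pair 2 carried the average. All 18 myelinating genes were higher in Hq-mut 2 than in Hq-WT 2, by a median of 1.28 on the log2 scale (from 0.67 for Plekhh1 to 1.98 for Opalin), whereas the medians were -0.12 in pair 1 (15 of 18 lower), -0.21 in pair 3 (16 of 18 lower) and 0.18 in pair 4 (15 of 18 higher). The committed genes Bcas1, Tspan2 and Enpp6 differed by 1.21, 1.09 and 1.09 in pair 2, and Gpr17 and Nkx2-2 by 0.29 and 0.17. The precursor genes differed by 0.11 or less in either direction in that pair. Without pair 2 the median of the myelinating genes was -0.07 (15 lower, 3 higher), that of the transcription factors -0.22 (all 4 lower), that of the precursor genes -0.22 and that of the committed genes -0.05. Hq-WT 2 was the library with the choroid plexus markers at 5492 CPM, against 380 CPM in Hq-mut 2. Hq-mut 2 itself stood apart from its group over all genes. Its chi-square per gene, a measure of how far 2 libraries differ, was 76.1 to 95.7 against Hq-mut 1, 3 and 4. Among Hq-mut 1, 3 and 4 it was 14.3 to 20. The part of either library's departure in the pair's difference was not tested. Hq-mut 3, in turn, was the library of this line with high striatal markers. Without pair 3 the medians were 0.37 for the myelinating genes (18 higher), 0.35 for the committed genes (5 higher), 0.05 for the transcription factors and -0.15 for the precursor genes. With the striatal marker mean as a covariate they were 0.54 (18 higher), 0.50 (5 higher), 0.13 and -0.12. At an unadjusted p under 0.05 that fit had 10 of the 18 myelinating genes, against 1050 of all 17969 genes tested. Neither fit called a member.

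None of the members other than Pdgfra reached an unadjusted p of 0.05 in Hq-mut. Tspan2 measured 71.0, 54.1, 141 and 77.7 CPM in Hq-WT and 74.7, 116, 117 and 87.9 CPM in Hq-mut, with a log2 fold change of 0.24 (SE 0.19, adjusted p = 0.772). Olig2, a transcription factor needed to form the lineage, measured 19.5, 19.7, 32.2 and 23.1 CPM in Hq-WT and 17.3, 26.7, 20.7 and 22.0 CPM in Hq-mut, with -0.13 (SE 0.15, adjusted p = 0.864). Both sets of values overlapped between the groups, and both genes had their highest Hq-WT value in library 3. Mbp had 0.14 (SE 0.23), Mog 0.38 (SE 0.26), Opalin 0.40 (SE 0.36), Myrf 0.14 (SE 0.14), Gjc3 0.08 (SE 0.16) and Trf 0.09 (SE 0.22). When the filter on low counts was dropped, edgeR called Mal, Cldn11 and Mog, all higher, with adjusted p of 0.0308, 0.0130 and 0.0439. This stood against 1.02% of the genes then tested (368), with 0.528% called higher. Like Mal and Cldn11, Mog was higher only in pairs 2 and 4, by 1.60 and 0.29 on the log2 scale. It was lower in pairs 1 and 3.

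**Figure D3:**
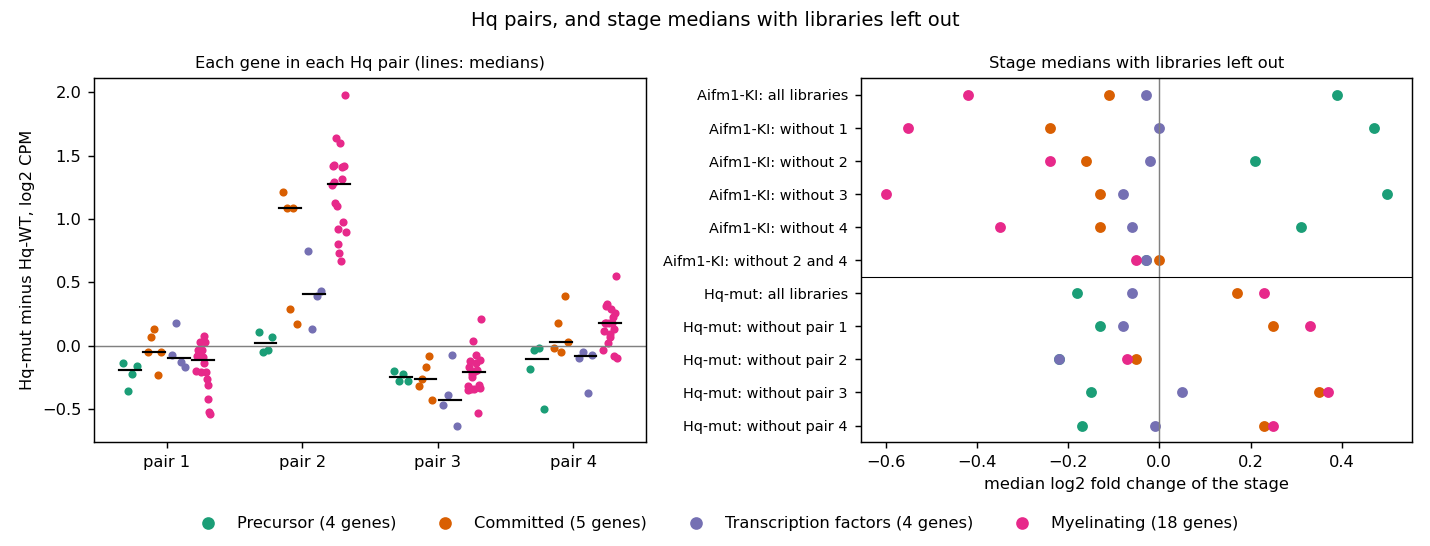
Left, the log2 CPM of Hq-mut minus that of Hq-WT for each gene (points, coloured by stage) in each same-numbered pair, with lines at the stage medians. Right, the median log2 fold change of each stage with all libraries and with libraries or pairs left out (points that coincide overlap); the myelinating median moves from -0.42 to -0.05 without Aifm1-KI 2 and 4 and from 0.23 to -0.07 without Hq pair 2.

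The third comparison took the difference of the mutants' effects, Hq-mut against Hq-WT minus Aifm1-KI against Aifm1-WT. It uses the same libraries as the first 2 comparisons and is no independent support for either. All 18 myelinating genes had a positive difference, with a median of 0.67 (from 0.35 to 0.99), and all 4 precursor genes a negative one, with a median of -0.56 (from -0.72 to -0.42). The committed genes had a median of 0.37 (3 positive, 2 negative) and the transcription factors one of 0.01. Over the 19129 genes tested 48.7% were positive and 51.3% negative. No member was called by edgeR, against 0.0105% of all genes, and DESeq2 called none, against 0.0993% (19 genes). At an unadjusted p under 0.05 there were 5 members, against 10.4% of all genes: Trf (0.93, SE 0.33, adjusted p = 0.450), Aspa (0.83, SE 0.33, adjusted p = 0.458), Cspg4 (-0.51, SE 0.18, adjusted p = 0.450), C1ql1 (-0.72, SE 0.26, adjusted p = 0.450) and Pdgfra (-0.62, SE 0.27, adjusted p = 0.474).

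For Aspa the libraries behind this were 8.38, 5.65, 18.8 and 10.7 CPM in Hq-WT and 6.72, 15.3, 17.3 and 12.9 CPM in Hq-mut, beside the Aifm1 values given above. Trf measured 5.05, 17.2, 14.3 and 13 CPM in Hq-mut, against 6.80, 8.68, 17.7 and 11.8 CPM in Hq-WT. Cspg4 measured 19.4, 14.3, 19.9 and 21.3 CPM in Hq-WT and 16.6, 13.9, 17.1 and 21 CPM in Hq-mut. The Hq groups overlapped for all 3 genes. Pdgfra measured 59.3, 56.2, 46.9 and 54.2 CPM in Aifm1-WT and 53.0, 103, 47.8 and 81.5 CPM in Aifm1-KI, where libraries 2 and 4 again stood above all others. The difference was 0.74 (SE 0.36, adjusted p = 0.493) for Mal, 0.50 (SE 0.28, adjusted p = 0.528) for Tspan2 and -0.22 (SE 0.20, adjusted p = 0.706) for Olig2. Mal measured 249, 183, 191 and 265 CPM in Aifm1-WT and 205, 100, 220 and 139 CPM in Aifm1-KI. In Aifm1-KI Tspan2 measured 116, 80.5, 122 and 80.9 CPM and Olig2 21, 22.1, 25.6 and 22.8 CPM. These 3 genes overlapped between Aifm1-KI and Aifm1-WT. The medians were 0.29 for the myelinating and -0.16 for the precursor genes without Aifm1-KI 2 and 4, and 0.36 and -0.60 without Hq pair 2.

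**Figure D4:**
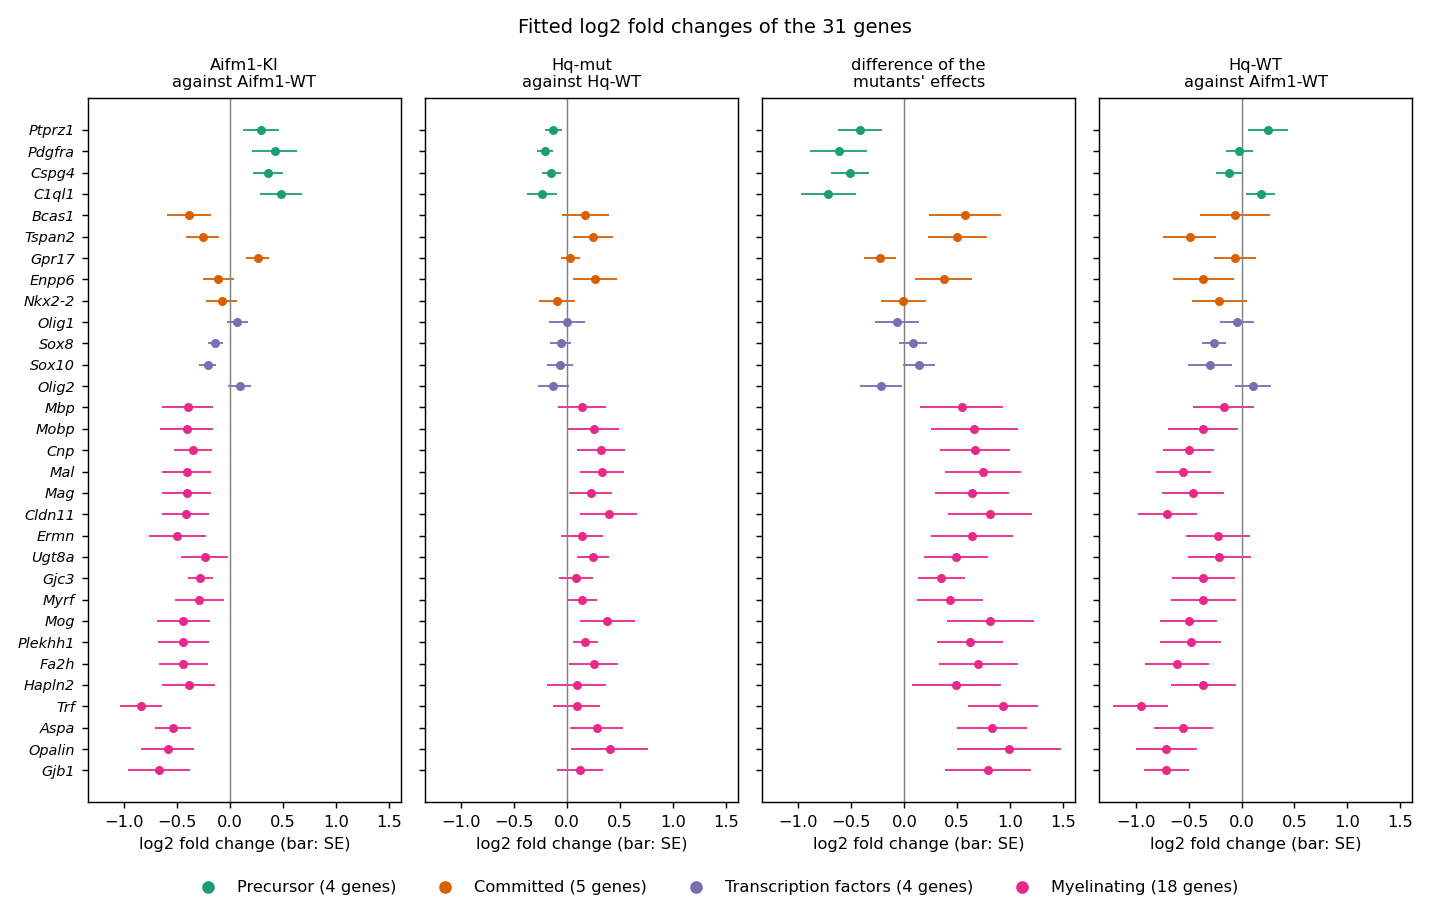
Fitted log2 fold change (horizontal axis; bars are standard errors) of each of the 31 genes (vertical axis, coloured by stage) in the 4 comparisons. The myelinating genes lie below 0 in Aifm1-KI (median -0.42), above 0 in Hq-mut (median 0.23) and below 0 in Hq-WT against Aifm1-WT (median -0.49), and no gene passed an adjusted p of 0.05.

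The wild-type groups of the lines were compared last, since each is the control of its own mutant. All 18 were lower in Hq-WT than in Aifm1-WT, with a median log2 fold change of -0.49 (from -0.95 to -0.17), and all 5 committed genes were lower, with a median of -0.21. The precursor genes (2 higher, 2 lower, median 0.08) and the transcription factors (1 higher, 3 lower, median -0.15) differed less. Of the 18106 genes tested 51% were higher and 49% lower. No member was called by edgeR, against 0.558% of all genes, 5 members had an unadjusted p under 0.05, against 12.7%, and DESeq2 called Trf, against 2.33% of all genes (421). The groups overlapped for all 31 members, where 4.59% of all genes had Hq-WT wholly below Aifm1-WT and 2.69% wholly above. These groups differ in stock and the labels name no batch, so line and handling cannot be told apart.

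In the Hq-WT values of Trf given above, only library 3 reached the lowest values of Aifm1-WT. The log2 fold change was -0.95 (SE 0.26, adjusted p = 0.160). Here too the Aifm1-WT libraries 1 and 2 held the liver-type transcripts. Without those libraries, an alternative chosen after seeing the data, it was -0.67, and the medians were -0.46 for the myelinating and -0.15 for the committed genes. Gjb1, a connexin of myelin sheaths, measured 11.8, 9.20, 7.10 and 8.63 CPM in Aifm1-WT and 4.52, 4.42, 7.86 and 6.07 CPM in Hq-WT, with -0.71 (SE 0.21, adjusted p = 0.194). Cldn11 measured 121, 87.7, 90.5 and 124 CPM in Aifm1-WT, and its log2 fold change was -0.70 (SE 0.28, adjusted p = 0.318). For both, Hq-WT 3 was the library that reached into the Aifm1-WT range.

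Tspan2 measured 139, 98.6, 110 and 133 CPM in Aifm1-WT, above Hq-WT 1, 2 and 4, with a log2 fold change of -0.49 (SE 0.25, adjusted p = 0.430). Sox8 measured 49.4, 46.7, 48.3 and 57.4 CPM in Aifm1-WT and 37.6, 42.8, 51.3 and 37.6 CPM in Hq-WT, with -0.26 (SE 0.11, adjusted p = 0.359). For Sox8 too, Hq-WT 3 alone lay within the range of Aifm1-WT. The members with the smallest p among those higher in Hq-WT were C1ql1 (0.18, SE 0.14, adjusted p = 0.604), Ptprz1 (0.25, SE 0.19, adjusted p = 0.599; 257, 247, 250 and 240 CPM in Aifm1-WT) and Olig2 (0.11, SE 0.17, adjusted p = 0.820; 21.6, 20.6, 17.9 and 26.7 CPM in Aifm1-WT).

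Hq-WT 3 decided the calls of this comparison. It held the highest Hq-WT value of all 18 myelinating genes, all 5 committed genes and all 4 transcription factors. Leaving out Hq-WT 3 therefore lowers their Hq-WT averages by construction, and the calls made without it are no separate support. Without it the myelinating median was -0.89 and edgeR called 11 of the 31 members, all lower in Hq-WT, against 1.25% of the 18444 genes then tested (0.862% lower). They were the myelinating genes Cnp, Mal, Mag, Cldn11, Mog, Plekhh1, Fa2h, Trf and Opalin, the committed gene Tspan2 and the transcription factor Sox10, with log2 fold changes from -0.60 (Sox10, adjusted p = 0.0215) to -1.23 (Trf, adjusted p = 0.0320). In that library the myelinating genes stood a median of 0.37 above the Aifm1-WT mean on the log2 scale, while the medians of Hq-WT 1, 2 and 4 were -0.88, -1.25 and -0.54. Hq-WT 3 had the smallest total, 10671580 counts. Its astrocyte markers had a mean of 8.39 log2 CPM, the highest of the 16 libraries (7.49 to 8.38 in the others). Its blood markers had a mean of 3.51 (1.78 to 3.27 in the others), but their summed level, 86.1 CPM, was below that of Hq-mut 2 (87.9 CPM). Its endothelial markers had a mean of 4.68, below that of Hq-WT 4 (4.75). Its excitatory neuron markers had a mean of 6.92, the lowest of the Hq line (7.14 to 7.44 in the others). Its choroid plexus, striatal and liver-type levels were within the ranges of the other libraries. The part of these levels in the result was not tested.

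Hq-WT 2, the library with choroid plexus markers at 5492 CPM, moved the values the other way. Without it the medians were -0.30 for the myelinating genes (15 lower, 3 higher), -0.04 for the committed genes, -0.05 for the transcription factors and 0.14 for the precursor genes (4 higher). No member was called then, and 8 of the 31 had the opposite sign.

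The balance of stages was read within each library as the mean log2 CPM of the 18 myelinating genes minus that of the 4 precursor genes. It was 0.91, 0.64, 0.72 and 0.93 in Aifm1-WT, the narrowest range of the groups, and 0.65, -1.11, 0.87 and -0.47 in Aifm1-KI. It was -0.19, -0.13, 0.83 and 0.14 in Hq-WT and -0.13, 1.07, 0.86 and 0.48 in Hq-mut. Aifm1-KI 1 and 3, Hq-WT 3 and Hq-mut 3 lay within the Aifm1-WT range, and the groups overlapped in both lines. The lowest value was that of Aifm1-KI 2, where the myelinating genes were low and the precursor genes high. In Hq-WT 1 and 4 the precursor genes were near their Aifm1-WT mean (median log2 differences of 0.05 and 0.15). In Hq-WT 2 they were lower (median -0.43), with 3 of 4 below all Aifm1-WT libraries and 1 above them.

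Other genes of the lineage, 12 of precursors, 9 of committed cells and 35 of myelinating cells, were listed apart from the 31 members and read from the same fits. In Aifm1-KI 11 of 12 precursor genes were higher (median 0.28), 6 of 8 tested committed genes were higher (median 0.07) and 34 of 35 myelinating genes were lower (median -0.34). The gene with the smallest p in each set was Tnr, a matrix glycoprotein of precursors (0.41, SE 0.07, adjusted p = 0.368, Aifm1-KI wholly above Aifm1-WT), Sema5a, a semaphorin (0.56, SE 0.17, adjusted p = 0.368), and Apod, a lipid-binding lipocalin of mature oligodendrocytes (-0.37, SE 0.11, adjusted p = 0.368, Aifm1-KI wholly below Aifm1-WT). In Hq-mut 8 of 12 precursor genes were higher (median 0.09), 7 of 8 committed genes were higher (median 0.11) and 28 of 35 myelinating genes were higher (median 0.11), so the lower precursor values of the 4 member genes were not present in most of these 12. The mean of the 35 myelinating genes was 4.07, 4.04, 4.96 and 4.34 log2 CPM in Hq-WT 1 to 4. In Hq-mut 1 to 4 it was 3.90, 4.87, 4.72 and 4.46. The smallest p values belonged to Matn4 (-0.42, SE 0.14, adjusted p = 0.573), Sema5a (0.44, SE 0.10, adjusted p = 0.523, higher in 4 of 4 pairs) and Gsn (0.26, SE 0.12, adjusted p = 0.646).

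For the difference of the effects, 11 of 12 precursor genes were negative (median -0.19) and 34 of 35 myelinating genes were positive (median 0.46), led by Matn4 (-0.69, SE 0.23, adjusted p = 0.450), Itpr2 of the committed set (-0.17, SE 0.15, adjusted p = 0.684) and Apod (0.72, SE 0.26, adjusted p = 0.450). Between the wild types, 32 of 35 myelinating genes were lower in Hq-WT (median -0.31), 6 of 12 precursor genes were (median -0.01) and 5 of 8 committed genes were (median -0.16), led by Gsn (-0.58, SE 0.16, adjusted p = 0.156), Susd5 (0.26, SE 0.13, adjusted p = 0.454) and Tcf7l2 (-0.63, SE 0.24, adjusted p = 0.305). None of these 55 tested genes was called by edgeR in the 4 comparisons with all libraries and the filter on low counts. Some were called under alternatives and are named for that. Tnr was called in Aifm1-KI by DESeq2 (adjusted p = 0.00121, higher), against 0.446% of all genes. It was also called by edgeR without Aifm1-KI 3 (adjusted p = 0.0435, higher), against 46 of 18871 genes. In Hq-mut without the filter edgeR called Sema5a and Apod, both higher (adjusted p of 0.00113 and 0.0271), against 1.02% of all genes. Between the wild types Gsn was called by DESeq2 (adjusted p = 0.041, lower in Hq-WT), against 2.33% of all genes. Without the filter edgeR called Gsn and Apod there (adjusted p of 0.0145 and 0.01), both lower in Hq-WT, against 560 of 36203 genes. Without Hq-WT 3 edgeR called 7 of the 35 myelinating genes of this list, all lower, against 0.862% of all genes called lower. The mean of these 35 genes was also highest in Hq-WT 3 (4.96 log2 CPM, against 4.04 to 4.34 in the other Hq-WT libraries). So these calls, too, follow in part from which library was left out.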

How the data were processed

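RNA was measured in 16 libraries of mouse cortex, 4 in each of 4 groups. The deposited table holds whole-number read counts per gene, which the authors made from 51-base single-end reads aligned to mm10 with STAR 2.6 and counted with HTSeq, per the submitters' processing notes and the labels' protocols. Neither the gene annotation nor whether counting used strand was stated there. Values were analysed as deposited. Gene symbols, positions and exon lengths came from GENCODE M21 (GRCm38). CPM used TMM factors over the 16 libraries, and library levels used log2 CPM with a prior count of 2. Genes were tested with edgeR 4.0.16 (R 4.3.3) after filterByExpr, by the quasi-likelihood F-test with Benjamini-Hochberg adjustment over all genes tested, called at an adjusted p under 0.05; the SE of a log2 fold change was its size over root F. All 31 members passed the filter in every comparison. The Hq comparison had the replicate number as a block: same-numbered Hq libraries deviated together (r of 0.431, 0.534, 0.409 and 0.453), while in the Aifm1 line r was -0.025 to 0.099 and no block was used.

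The members, stages and gene lists were chosen with earlier results of these data known. Values in every library are given for the members with the smallest p (3 in each direction and 1 per stage in each comparison). Of the other lineage genes, the 1 with the smallest p per list is given with its fitted values, without values per library. Replicates were no repeats of 1 library (chi-square per gene of 3.48 to 95.7 within groups). The fit was tested on simulated data. Alternatives were DESeq2 1.42.0, RLE size factors, no filter, the block added or dropped, libraries left out (Aifm1-WT 1 and 2 between the wild types only after seeing the data), a striatal marker covariate, and a prior count of 0.5. Depth was 10671580 to 32551594 counts. The lowest level of a member was 2.21 CPM, for Nkx2-2 in Hq-WT 2, a library in which 3 counts made 0.154 CPM.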

Additional observations from a re-analysis of the deposited data

Results flagged for a closer look

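The levels of the 31 members and the 4 stage means were examined in each of the 4 groups, 140 sets of 4 libraries in all. In 2 of them 1 library stood far from the other 3 by Dixon's criterion, under which chance gives about 1 in 20. Mal measured 257 CPM in Hq-WT 3, against 102 to 125 CPM in the other Hq-WT libraries. Mog measured 49.1 CPM in the same library, against 19.9 to 22.1 CPM.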

How the results depend on the processing

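No member called under an alternative had a sign opposite to its reported value. With DESeq2 the genes called numbered 82 in Aifm1-KI (0 as reported; 2094 at an unadjusted p under 0.05), 33 in Hq-mut (3 as reported), 19 for the difference (2) and 421 between wild types (101), with 1 member called in Aifm1-KI and 1 between wild types. Without the filter, 368 genes and 3 members were called in Hq-mut and 560 genes and 1 member between wild types. With the striatal covariate, 1 gene was called in Aifm1-KI and 1 in Hq-mut, the Aifm1-KI medians were -0.26 (precursor), 0.13 (committed) and 0.17 (myelinating), and the Hq-mut medians 0.50 (committed; 0.17 as reported) and 0.54 (myelinating; 0.23). Without Aifm1-KI 2 and 4 the precursor median was -0.03, and -0.16 for the difference; the cause was not tested. Without Aifm1-WT 1 and 2, chosen after seeing the data, 20 genes were called between wild types. Leaving out 1 library or pair at a time, the genes called ranged from 0 to 46 in Aifm1-KI (46 without Aifm1-KI 3), 1 to 4 in Hq-mut and 32 (without Aifm1-WT 2) to 231 (without Hq-WT 3) between wild types, the members called between wild types from 0 to 11, and the committed median in Aifm1-KI from -0.24 to -0.12. With the replicate block in the Aifm1 line, where the numbers were not shown to pair libraries, 0 genes were called and the myelinating median was -0.48; without the block in Hq-mut, 3 genes were called and it was 0.17 (17 higher, 1 lower). Signs of members turned most with the striatal covariate in Aifm1-KI (24 of 31), without Hq pair 2 (19 of 31) and between wild types without Hq-WT 2 (8 of 31). With 4 libraries a group, a missed threshold does not show that values were equal.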
